A study of Mus musculus with 5 samples.

Results

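The genes described here are those that mitochondria encode on their own circular DNA, taken as every row of the count table whose symbol begins with mt-. There were 37 of them among 55573 genes in the table: 13 mRNAs, 2 ribosomal RNAs (rRNAs) and 22 transfer RNAs (tRNAs). Their RNA was read by RNA-seq in N2A cells, the mouse neuroblastoma line Neuro-2A, and the question is how their RNAs differ when UPF1, the RNA helicase on which nonsense-mediated mRNA decay (NMD) depends, is knocked down. The siCtl group held 2 libraries (replicates 1 and 3) from cells given 60 pmol of a commercial negative control siRNA (Silencer Negative Control #1), and the siUpf1 group held 3 libraries (replicates 1, 2 and 3) from cells given 60 pmol of siRNA to Upf1. Both groups were transiently transfected cultures of the same line, and poly(A)-selected, strand-specific libraries were sequenced as single reads of 100 nucleotides.

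Mitochondrial DNA is transcribed from both strands into long precursors that run through many genes. tRNAs lie between most of the rRNAs and mRNAs, and their excision by RNase P at the 5′ end and ELAC2 at the 3′ end frees the RNAs on either side. The mRNAs encode core subunits of respiratory complexes I, III and IV and of ATP synthase, and most receive a short poly(A) tail inside the organelle, where they are translated by mitochondrial ribosomes. UPF1 and NMD act on cytoplasmic translation of nuclear mRNAs, so mitochondrial transcripts are not classical NMD substrates.

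Between 20402205 and 27717594 reads per library were assigned to genes. Upf1 itself fell from 5230 ± 18.1 normalised counts in siCtl (mean ± SD, n = 2) to 2449 ± 46.6 in siUpf1 (n = 3), with no overlap between the groups (log2 difference -1.10, SE 0.05; adjusted p by DESeq2 7.09e-101). Neuronal markers were present, with Tubb3 averaging 14560 normalised counts in siCtl and Stmn2 6281. Of 6 markers of other cell types, Epcam was at 0 in both siCtl libraries and Ptprc, Gfap and Col1a1 averaged 2.36, 9.12 and 60.5 normalised counts there, but Pecam1 averaged 208 and Mbp 392. Among the 4 of those that were tested, 1 (Pecam1) was called, and it was lower. Nothing in the labels says that libraries of a group came from separate cultures, so each p-value measures the spread between these libraries.

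Not every mitochondrial gene could be followed in this table. Of the 37, 14 had no read in any library, 6 never had more than 5 reads, and 17 had more than 5 in at least 1 library. The zeros were not spread evenly along the map. Of the 13 mRNAs, 7 had between 796 and 254633 reads per library, whereas mt-Co2 and mt-Co3 (subunits of complex IV), mt-Atp8 (ATP synthase), mt-Nd3 and mt-Nd4l (complex I) were listed at 0 in every library and mt-Atp6 (ATP synthase) had 1 read in 1 library. A count of 0 allows up to 3 counts, which is 1.08e-05% to 1.47e-05% of the reads of these libraries, for counting error only and for reads that the counting could assign.

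**Figure D1:**
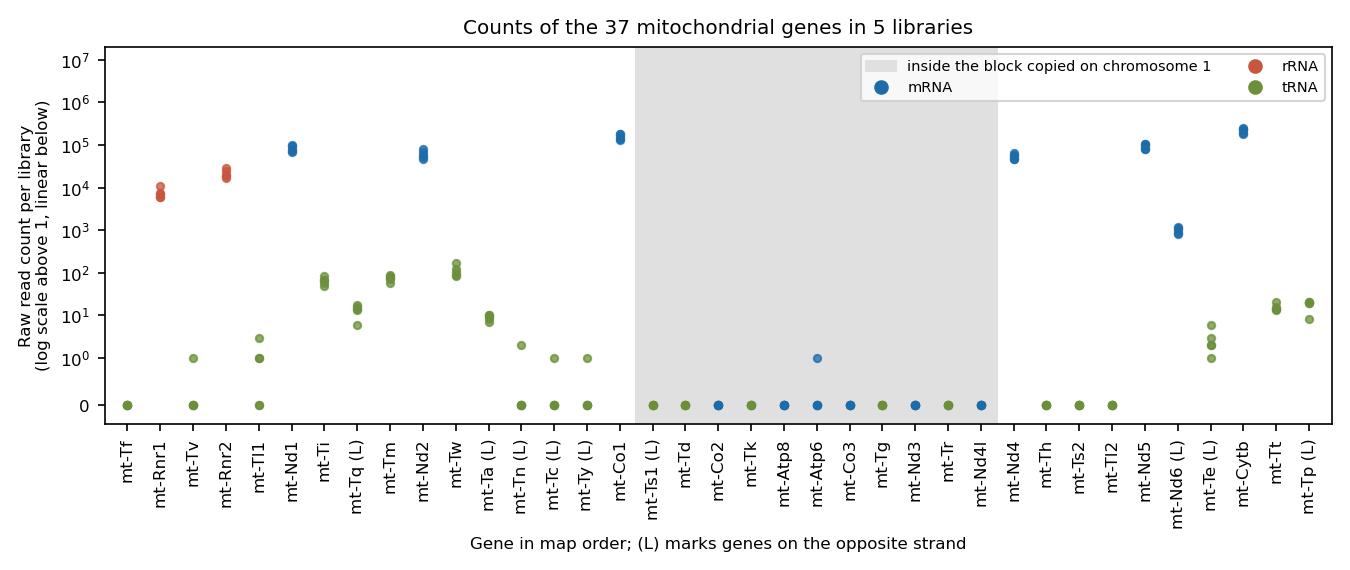
Raw read counts (vertical axis, log scale above 1 and linear below) of the 37 mitochondrial genes in map order, with 1 point per library and the colour giving the class. The shaded genes lie inside the block that is copied on chromosome 1, and none of these 11 genes had more than 1 read in any library.

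The uncounted mRNAs lay side by side. A row of 7 annotated pseudogenes on the minus strand of chromosome 1 (chr1:24611535-24616197, build GRCm38) copies the mitochondrial genes from the later part of mt-Co1 to the earlier part of mt-Nd4 in the same order. The part of it that aligns covers chrM:6390-11042, a stretch of 4653 bases. Each copy was identical to its mitochondrial gene over the aligned bases (Gm28661 over 681 bases of mt-Co2, Gm28437 over 783 of mt-Co3, Gm10925 over 678 of mt-Atp6), except that Gm29216 had 1 mismatch to mt-Co1 in 483 aligned bases. Coordinates and sequences here come from the GENCODE M21 annotation of GRCm38. The first 100 bases of mt-Atp6 (chrM:7927-8026, plus strand) and of its copy Gm10925 (chr1:24614552-24614651, minus strand) are shown because they cannot be told apart by any read within them.
mt-Atp6: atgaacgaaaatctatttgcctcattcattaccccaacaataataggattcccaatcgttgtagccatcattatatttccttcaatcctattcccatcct
Gm10925: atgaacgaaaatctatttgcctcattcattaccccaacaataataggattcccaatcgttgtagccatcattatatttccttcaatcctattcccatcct

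The edge of the block lies inside mt-Co1, the catalytic subunit of complex IV. Bases 1054 to 1113 of mt-Co1 (chrM:6381-6440) and the first 60 bases of Gm29216 (chr1:24616138-24616197, minus strand) are set side by side with the differing bases in capitals, and the last of them, A1066T counted from the first base of mt-Co1, is the mismatch within the aligned part.
mt-Co1: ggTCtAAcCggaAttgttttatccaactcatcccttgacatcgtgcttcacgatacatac
Gm29216: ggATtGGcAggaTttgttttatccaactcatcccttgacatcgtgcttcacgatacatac

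Measured as the share of a gene's 100-base windows that recur in an annotated nuclear transcript, the overlap was 99.5% for mt-Co2 and mt-Atp6, 99.9% for mt-Co3, 97.6% for mt-Nd3 and 98.5% for mt-Nd4l. It was 60.8% for mt-Nd4, 30.8% for mt-Co1 and 3.19% for mt-Nd2, and 0 for mt-Nd1, mt-Nd5, mt-Nd6, mt-Cytb and both rRNAs. Part of the share of mt-Co1 and all of that of mt-Nd2 came from a less exact row of copies on chromosome 2, in which Gm13340 had 37 mismatches to mt-Co1 and Gm13339 had 17 to mt-Nd2. Thus each mRNA with a share over 97% was at 0 or 1 read, and each with a share of 60.8% or less was counted in full or in part. mt-Atp8 is the exception to this order, with no window in an annotated transcript and no read, yet it lies within the collinear stretch between the copies of mt-Co2 and mt-Atp6. The sequence of chromosome 1 between the annotated pseudogenes was not compared.

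The 11 genes wholly inside the stretch, which are 6 mRNAs and 5 tRNAs, had at most 1 read in any library, while only 4 of the 26 other mitochondrial genes, all tRNAs, were at 0. The counting parameters that the study states include no option for reads that map to several places or lie on several genes. How many reads were set aside for that cannot be read from a table of counts.

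Some copies were counted where their mitochondrial partners were not, and Gm28438, the copy of mt-Nd3, had the most reads of them. mt-Nd3 had no read in any library, and Gm28438 had 43 and 96 raw reads in the siCtl libraries and 99, 48 and 78 in the siUpf1 libraries. The groups overlapped, and its log2 fold change was 0.10 (SE 0.32, DESeq2 adjusted p = 0.839). The first 60 bases of both (chrM:9459-9518 and chr1:24613060-24613119, minus strand) differ at the capital, and the 342 bases that follow the third base are identical.
mt-Nd3: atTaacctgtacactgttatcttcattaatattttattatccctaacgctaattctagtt
Gm28438: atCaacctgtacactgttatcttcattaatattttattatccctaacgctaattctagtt

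The other 6 copies in the block had between 0 and 7 reads in every library, and none of them passed the low-count filter of the test. Gm13341, a copy of mt-Co2 on chromosome 2 with 16 mismatches to it, had 31 and 20 reads in siCtl and 20, 15 and 19 in siUpf1, while mt-Co2 had none.

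Of the 13 mRNAs, the 7 that were counted were all tested, and 6 of them were called higher and none lower in siUpf1 at an adjusted p under 0.05. Over the whole table, 44.9% of 15191 tested genes were called, 22.0% higher and 22.9% lower. Their median log2 fold change was 0.17, with a range from 0.09 to 0.43, against a median of -0.0024 over all tested genes and a median absolute change of 0.28. So the mitochondrial mRNAs shared a direction, but most had a smaller change than this median. The median absolute change covers tested genes of all levels, including some with few reads. It was not matched to the level of these mRNAs. In 5 of the 7, every siUpf1 library lay above both siCtl libraries, as did 34.3% of all tested genes. These directions are relative to the median nuclear gene. With libraries scaled to the summed mitochondrial mRNAs instead, mt-Co1, mt-Nd4 and mt-Cytb turned to values below 0, on a scale that fixes the sum and so sets some against others. In bulk RNA, more mitochondrial RNA per cell and more cells rich in it cannot be told apart, and mitochondrial DNA was not measured.

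The mRNAs of complex I, the NADH dehydrogenase that is the entry point of the respiratory chain, were the most numerous. mt-Nd1 (chrM:2751-3707, plus strand), a membrane subunit, had 70677 and 76602 normalised counts in siCtl and 91210, 90567 and 86173 in siUpf1. All siUpf1 values were above both siCtl values, and the log2 fold change was 0.28 (SE 0.04, DESeq2 adjusted p = 9.31e-10), that is, 121% of the siCtl mean. mt-Nd2 (chrM:3914-4951), another membrane subunit, had 50427 and 55187 in siCtl and 71084, 66585 and 60792 in siUpf1. The groups were again apart, with siUpf1 replicate 1 the highest and replicate 3 the lowest of the siUpf1 libraries, and the log2 fold change was 0.33 (SE 0.10, DESeq2 adjusted p = 0.00245).

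mt-Nd4 and mt-Nd5 encode proton-pumping subunits of the membrane arm. mt-Nd4 (chrM:10167-11544) had 48504 and 52564 normalised counts in siCtl and 58108, 59052 and 52163 in siUpf1. siUpf1 replicate 3 lay between the siCtl libraries, so the groups overlapped, and the log2 fold change was 0.16 (SE 0.05, DESeq2 adjusted p = 0.00665). This call did not hold without siCtl replicate 1 (adjusted p = 0.276), without siUpf1 replicate 1 (0.313) or without siUpf1 replicate 2 (0.327). mt-Nd5 (chrM:11742-13565) had 84370 and 89183 in siCtl and 94029, 103585 and 94432 in siUpf1. Its groups did not overlap and its log2 fold change was 0.17 (SE 0.05, DESeq2 adjusted p = 0.00125), but the call was lost without siCtl replicate 1 (adjusted p = 0.124).

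mt-Nd6 (chrM:13552-14070, minus strand) is the only mRNA on the opposite strand and is known, from human cells, to carry little or no poly(A) tail. It had 834 and 821 normalised counts in siCtl and 993, 1279 and 1079 in siUpf1, with siUpf1 replicate 2 the highest. The groups were apart, and the log2 fold change of 0.43 (DESeq2, SE 0.10, adjusted p = 7.57e-05) was the largest of the 7 mRNAs.

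mt-Cytb (chrM:14145-15288) encodes cytochrome b, the only mitochondrially encoded subunit of complex III. It had 203317 and 215282 normalised counts in siCtl and 226462, 227587 and 212687 in siUpf1. siUpf1 replicate 3 lay below siCtl replicate 3, and the log2 fold change of 0.09 (DESeq2, SE 0.04, adjusted p = 0.0786) did not pass, although it did without siUpf1 replicate 3 (0.12, adjusted p = 0.018). Without siCtl replicate 1 the value was 0.04 (adjusted p = 0.613).

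mt-Co1 (chrM:5328-6872) was the most even of all, with 145452 and 144811 normalised counts in siCtl and 159296, 160309 and 160381 in siUpf1. The siUpf1 libraries were 110% of the siCtl mean, with a log2 fold change of 0.14 (DESeq2, SE 0.03, adjusted p = 4.72e-05) and no overlap.

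**Figure D2:**
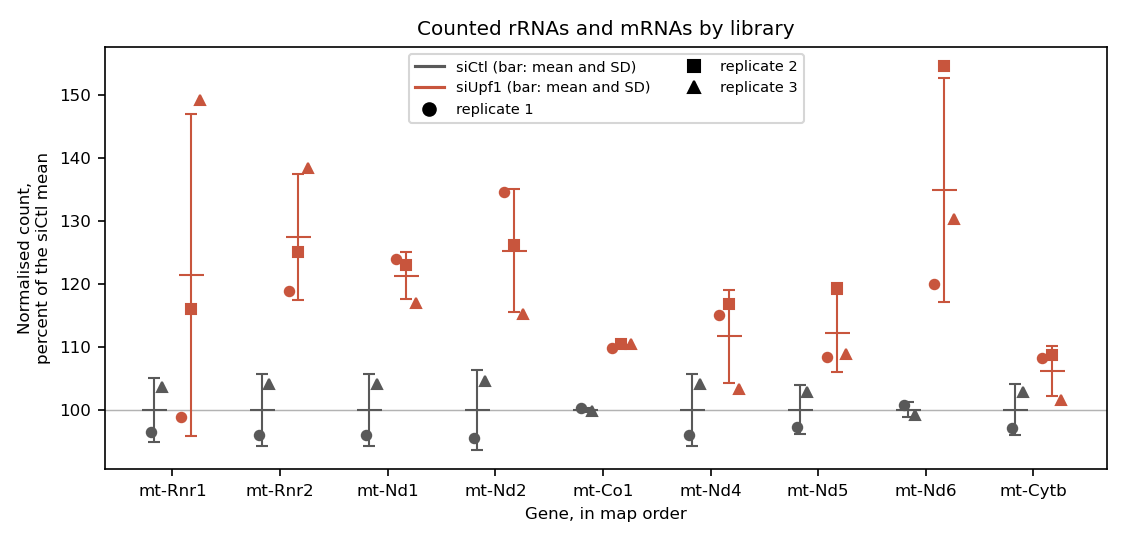
Normalised counts of the 2 rRNAs and 7 counted mRNAs in each library as a percent of the siCtl mean (vertical axis), with genes in map order, a marker for each replicate number, and bars for the mean and SD of each group. The siUpf1 means lie between 106% (mt-Cytb) and 135% (mt-Nd6) of the siCtl mean under median-of-ratios scaling, and the siUpf1 libraries overlap siCtl for mt-Rnr1, mt-Nd4 and mt-Cytb.

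The same mRNAs were compared with each other by scaling each library to the summed counts of the mitochondrial mRNAs, which shifted the median log2 fold change of all genes by -0.16. Because their sum is fixed on this scale, a rise of some of them means a fall of others. The shares of all genes called carry the shift and are no reference for these mRNAs. On this scale 3 of the 7 were called higher, against 12.3% of 15709 tested genes, and none was called lower, against 33.5% (45.8% in either direction). mt-Nd1 (log2 fold change 0.12, SE 0.04, DESeq2 adjusted p = 0.0203), mt-Nd2 (0.16, SE 0.06, adjusted p = 0.00836) and mt-Nd6 (0.27, SE 0.10, adjusted p = 0.0251) were the ones called. mt-Co1 was at -0.02, mt-Nd4 at -0.0032, mt-Nd5 at 0.0038 and mt-Cytb at -0.08 (adjusted p between 0.141 and 0.968 for these 4). mt-Cytb made up 33.7% and 33.9% of the counted mitochondrial mRNA reads in siCtl and 32.3%, 32.1% and 31.9% in siUpf1, the only one whose share was lower in every siUpf1 library. mt-Nd1 made up 11.7% and 12.1% in siCtl and 13.01%, 12.8% and 12.9% in siUpf1.

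**Figure D3:**
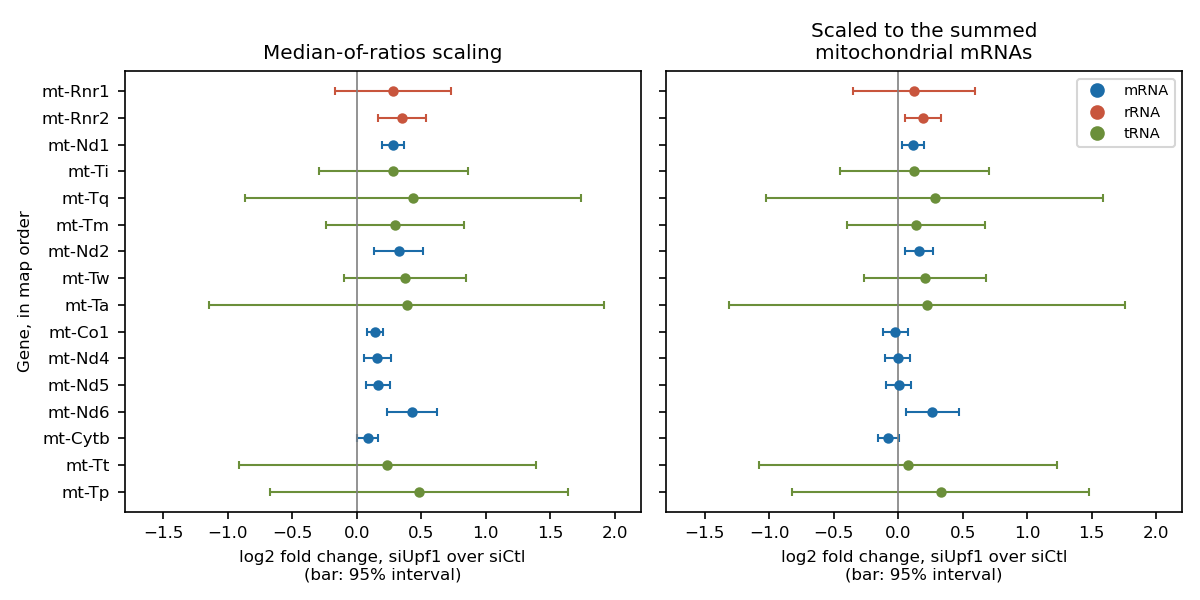
Log2 fold changes (siUpf1 over siCtl, horizontal axis, bars for the 95% interval) of the 16 tested mitochondrial genes in map order, under median-of-ratios scaling (left) and with libraries scaled to the summed mitochondrial mRNAs (right). On the left all 16 are above 0, and on the right mt-Co1, mt-Nd4 and mt-Cytb fall below 0 while mt-Nd1, mt-Nd2, mt-Nd6 and mt-Rnr2 remain called.

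Per length, the mRNAs differed widely in captured reads although most come from 1 strand. Divided by the kilobases of windows that no nuclear copy shares, mt-Cytb averaged 200287 ± 8096 normalised counts per kilobase in siCtl (SD, n = 2), followed by mt-Co1 at 145132 ± 453, mt-Nd4 at 100665 ± 5718, mt-Nd1 at 85827 ± 4883, mt-Nd2 at 58094 ± 3703, mt-Nd5 at 50305 ± 1973 and mt-Nd6 at 1970 ± 22.9. In these poly(A)-selected reads, mt-Nd6 was thus 25.5 times lower than the next mRNA in siCtl and 21.2 times lower in siUpf1. Its mRNA is known, from human cells, to carry little or no tail. How far poly(A) capture lowered its counts was not tested. The order was the same in siUpf1, where mt-Nd4 and mt-Nd1 overlapped between libraries. All other neighbours were apart in both groups.

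The rank of mt-Nd4 depended on how length was counted. Per kilobase of its whole annotated length it averaged 36672 in siCtl and ranked 6 of the 7, and per kilobase of unshared windows it ranked 3. The other genes kept their order relative to each other on both scales, and on whole length mt-Nd2 and mt-Nd5 overlapped in siCtl.

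**Figure D4:**
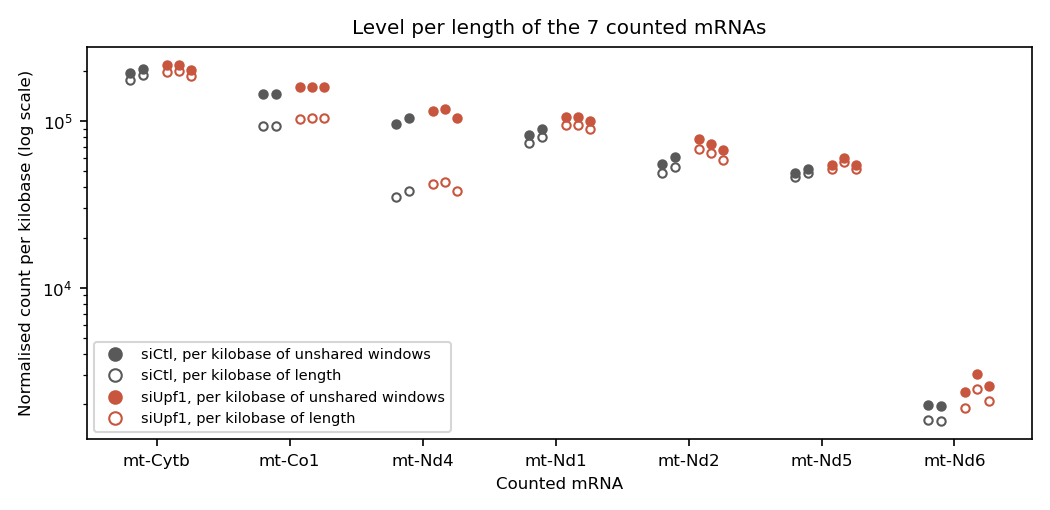
Normalised counts per kilobase (vertical axis, log scale) of the 7 counted mRNAs in each library, per kilobase of windows shared with no annotated nuclear transcript (filled) and per kilobase of annotated length (open). mt-Nd4 moves from rank 6 on annotated length to rank 3 on unshared windows, and mt-Nd6 lies more than 20 times below the other mRNAs in siCtl. These are poly(A)-selected reads, and loss at capture of RNAs with little or no tail was not measured.

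The 2 rRNAs form the small (mt-Rnr1, 12S) and large (mt-Rnr2, 16S) subunits of the mitochondrial ribosome and are transcribed ahead of the mRNAs. mt-Rnr2 (chrM:1094-2675) had 17570 and 19054 normalised counts in siCtl and 21765, 22896 and 25339 in siUpf1. The groups were apart, and it was called higher with a log2 fold change of 0.35 (DESeq2, SE 0.09, adjusted p = 0.000753), a call that also held when libraries were scaled to the mitochondrial mRNAs (0.19, adjusted p = 0.0194). mt-Rnr1 (chrM:70-1024) had 6360 and 6832 in siCtl and 6524, 7651 and 9842 in siUpf1. siUpf1 replicate 1 lay between the siCtl libraries and replicate 3 far above, and the log2 fold change of 0.28 (DESeq2, SE 0.23, adjusted p = 0.343) did not pass. Without siUpf1 replicate 3 it was 0.10 (adjusted p = 0.258). edgeR's quasi-likelihood test called both rRNAs higher (mt-Rnr1 adjusted p = 0.0395), among 27.5% of 15368 genes called higher by that test.

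Values from other RNAs that poly(A) capture should leave behind stood beside the rRNAs. rRNA reads were 3.96% and 4.08% of the counted mitochondrial mRNA reads in siCtl and 4.03%, 4.31% and 5.27% in siUpf1, with siUpf1 replicate 3 the highest. Rn7sk, a nuclear RNA without a poly(A) tail, had 118.5 and 294 normalised counts in siCtl and 96.1, 110 and 894 in siUpf1, also highest in siUpf1 replicate 3. Of 10 tested RNAs listed as lacking a poly(A) tail or overlapping nuclear rRNA, none was called in either direction by DESeq2. However, 1 (Hist1h2bc) had an unadjusted p under 0.05, and edgeR called 2 (Hist1h1d and Hist1h2bc) higher. The 10 had a median log2 fold change of 0.31 against -0.0024 over all tested genes. The list included Gm42418, which overlaps nuclear rRNA and took between 4.27% and 7.32% of the reads (DESeq2 adjusted p = 0.833), and histone mRNAs such as Hist1h2bc (0.28, SE 0.14, DESeq2 adjusted p = 0.0974). Hist1h2bc averaged 282 normalised counts over all libraries, and the other tested histone mRNAs averaged between 20.9 and 78.1. Whether the reads of Hist1h2bc came from RNA with a tail was not tested. Gm42418 and Lars2, which had the most reads on the list, were highest in siUpf1 replicate 2 (1873100 and 221536 normalised counts, against 1386190 and 180341 in replicate 3). Hist1h2bc was highest in siUpf1 replicate 1, and the other tested members in siUpf1 replicate 3. The part of carried-over RNA without tails in the rRNA, mt-Nd6 and tRNA values was not tested.

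The tRNAs, at 59 to 75 bases, are shorter than a full-length read, and mature tRNAs carry no stable poly(A) tail. Which RNAs the reads on them came from was not tested. Of 22 tRNAs, 9 had no read, 5 had at most 5 reads, and 8 had more. Outside the copied stretch, 10 tRNAs have at least 70 bases free of any annotated gene on the same strand on at least 1 side, or an end of the map, and 8 of these had more than 5 reads, with up to 173 for mt-Tw. The other 7, which lie closer to their neighbours on the same strand, had at most 3 reads. The 70-base limit was set after these values were seen, and the gap between mt-Ti and mt-Tm, which gives both of them their open side, is exactly 70 bases.

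Shown here are mt-Tw (tRNA for tryptophan, chrM:4950-5016), followed by 311 free bases, and mt-Th (tRNA for histidine, chrM:11546-11612), with 1 free base before and none after. Capitals mark bases that lie within a neighbouring gene on the same strand. mt-Tw had the most reads of the 22, and mt-Th had none.
mt-Tw: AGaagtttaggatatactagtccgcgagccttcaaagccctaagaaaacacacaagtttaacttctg
mt-Th: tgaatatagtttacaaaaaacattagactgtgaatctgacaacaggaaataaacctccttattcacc

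Of the 22 tRNAs, 7 passed the low-count filter, and none was called in either direction by DESeq2 (none had an unadjusted p under 0.05) or by edgeR. Their log2 fold changes ran from 0.24 to 0.48 with a median of 0.37. mt-Tw had 93.3 and 97.2 normalised counts in siCtl and 154, 105 and 109 in siUpf1, which did not overlap, with a log2 fold change of 0.37 and a 95% interval from -0.10 to 0.84 (DESeq2 adjusted p = 0.214). mt-Tm, the tRNA for methionine, had 60.8 and 69.8 in siCtl and 74.7, 87.9 and 79.3 in siUpf1, again apart, with an interval from -0.24 to 0.83 (adjusted p = 0.403). mt-Ti, the tRNA for isoleucine, had 50.3 and 63.2 in siCtl and 73.8, 72.8 and 61.5 in siUpf1, which overlapped (adjusted p = 0.471). At these counts a change of the size seen for the mRNAs was not detectable. mt-Tq, mt-Ta, mt-Tt and mt-Tp had between 6 and 21 raw reads per library.

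As a share of all assigned reads, the mitochondrial mRNAs took 2.38% and 2.53% in siCtl and 2.88%, 2.77% and 2.702% in siUpf1, so the groups did not overlap and the ratio of means was 1.14. This share holds the 7 counted mRNAs of the 13 and next to nothing of the others, so it is not the whole mitochondrial mRNA fraction. The rRNAs took 0.0943% and 0.103% in siCtl and 0.116%, 0.119% and 0.142% in siUpf1, a ratio of 1.28. The tRNAs took 0.000971% and 0.00115% in siCtl and 0.00151%, 0.00135% and 0.00123% in siUpf1, a ratio of 1.29. No test was made of these shares. The smallest p-value that exact permutation of 2 against 3 libraries can give is 0.1. The mRNA ratio was 1.15 with protein-coding reads as the denominator and 1.14 without Gm42418.

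Most subunits of the same complexes are encoded in the nucleus. Of 74 tested nuclear-encoded subunits of complexes I, III and IV and ATP synthase, 8 were called higher, 23 lower and 43 were not called, with a median log2 fold change of -0.07. Over all tested genes 22.0% were called higher and 22.9% lower. Without siCtl replicate 3 fewer subunits were called higher, and the median of all of them was -0.06. With libraries scaled to the mitochondrial mRNAs the counts were 3 higher and 48 lower, in a fit that called 12.3% of all tested genes higher and 33.5% lower. No test compared nuclear with mitochondrial subunits.

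In complex I, 4 of 36 nuclear subunits were higher and 9 lower, whereas all 5 counted mitochondrial subunits were higher on the same scale (3 of them when scaled to the mitochondrial mRNAs). Ndufv3, a subunit of the NADH-oxidising module, rose from 1278 ± 12.2 to 2110 ± 105 normalised counts (0.72 on the log2 scale, SE 0.07, DESeq2 adjusted p = 2.91e-24), and Ndufb11 (0.37) and Ndufab1, the mitochondrial acyl carrier protein (0.24), also rose. Ndufa7 fell from 2546 ± 36.6 to 1570 ± 121 (-0.70, SE 0.07, adjusted p = 2.01e-22), as did Ndufs7 (-0.50) and Ndufs3 (-0.44), both part of the arm that carries electrons. Thus subunits of the same complex were called in both directions.

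In complex III, 2 of 9 nuclear subunits were higher and 5 lower, with the lowest median of the 4 complexes at -0.26. Uqcr11 (-0.56), the core subunit Uqcrc2 (-0.45) and Uqcrb (-0.32) fell, whereas Uqcr10 (0.46) and Uqcrq (0.26) rose. In complex IV, 1 of 12 was higher and 2 lower. Cox8a fell from 2245 ± 52.7 to 1259 ± 124 (-0.84, SE 0.08, DESeq2 adjusted p = 2.3e-25) and Cox4i1 fell by 0.22 on the log2 scale, while Cox7c rose by 0.25. Of 17 ATP synthase subunits 1 was higher and 7 lower. Both Atp5b, the catalytic beta subunit (-0.32, SE 0.04, adjusted p = 1.05e-16), and Atp5c1, the gamma subunit of the rotor (-0.53), fell, as did Atp5o (-0.27), and Atp5k rose (0.29).

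**Figure D5:**
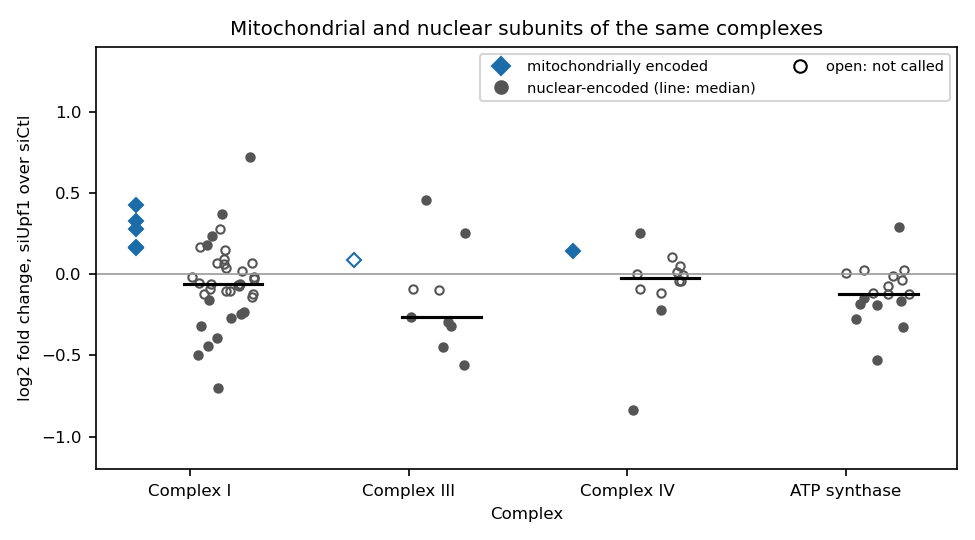
Log2 fold changes (siUpf1 over siCtl, vertical axis) of mitochondrially encoded (diamonds) and nuclear-encoded (circles, horizontal spread only for visibility) subunits of 4 complexes, with filled symbols for called genes and a line at the nuclear median. The counted mitochondrial mRNAs lie between 0.09 and 0.43 under median-of-ratios scaling, where mt-Co1, mt-Nd4 and mt-Cytb would fall below 0 if scaled to the mitochondrial mRNAs, and the nuclear medians lie between -0.26 and -0.02.

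Factors that make and process mitochondrial RNA are encoded in the nucleus. The fit behind the counts below called 22.0% of all tested genes higher and 22.9% lower. Of 17 tested genes for mitochondrial DNA transcription and replication, 2 were higher and 7 lower, with a median of -0.15. Tfb2m, the factor that opens the promoter for the mitochondrial RNA polymerase, fell from 393 ± 0.97 to 257 ± 18.3 normalised counts (-0.61, SE 0.14, DESeq2 adjusted p = 3.18e-05). The transcription and ribosome assembly factor Mterf3 (-0.51) and Rnaseh1, which removes RNA from RNA-DNA hybrids (-0.35), fell too. Mterf2, a member of the Mterf3 family (0.57), and Mgme1, a nuclease of mitochondrial DNA (0.29), rose. The polymerase Polrmt (-0.22, SE 0.07, adjusted p = 0.0023) and the DNA-packaging factor Tfam (-0.15, SE 0.06, adjusted p = 0.0315), which were chosen for mention after their values were seen, were also lower.

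Of 25 genes for mitochondrial RNA processing and turnover, 3 were higher and 7 lower, with a median of -0.04. The nucleases that cut tRNAs out of the precursors moved in opposite directions. 1110008L16Rik, an older symbol of Prorp, the nuclease subunit of RNase P, fell from 509 ± 4.14 to 380 ± 40.7 normalised counts (-0.43, SE 0.12, DESeq2 adjusted p = 0.00178). Elac2, the 3′-end nuclease, rose from 1630 ± 65.5 to 1965 ± 32.8 (0.27, SE 0.06, adjusted p = 0.000118). The other RNase P subunits, Trmt10c (0.16, DESeq2 adjusted p = 0.065) and Hsd17b10 (-0.09, adjusted p = 0.41), were not called. Both were chosen for mention after their values were seen. In the FASTK family of RNA-binding proteins, Fastkd1 (-0.66) and Fastkd2, which binds the 16S rRNA (-0.35), fell, and Fastk, whose mitochondrial form is needed for mt-Nd6 mRNA (0.20), rose, as did Angel2 (0.21). Lrpprc, which stabilises mitochondrial mRNAs, had 4863 ± 15.9 in siCtl and 4784 ± 67.9 in siUpf1 (-0.02, SE 0.05, adjusted p = 0.729). It too was chosen for mention after its values were seen.

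Of 19 genes for modification of mitochondrial rRNAs and tRNAs or for their assembly, 1 was higher and 7 lower, with a median of -0.13. The 12S rRNA chaperone Eral1 fell from 930 ± 17.3 to 605 ± 27.9 normalised counts (-0.62, SE 0.09, DESeq2 adjusted p = 1.27e-10). Mto1, a tRNA wobble-base enzyme (-0.47), and Nsun4, a methyltransferase of 12S rRNA (-0.41), fell, and Mrm1, a methyltransferase of 16S rRNA (0.27), rose. Of 12 translation factors, 1 was higher (Oxa1l, an inner-membrane insertase, 0.16) and 1 lower (the elongation factor Gfm1, -0.19), with a median of 0.05. Of 8 regulators of mitochondrial biogenesis, 1 was higher (Esrra, 0.31) and 4 lower, beside 22.0% and 22.9% of all tested genes. Among the 4 were Gabpb1, a subunit of nuclear respiratory factor 2 (-0.56), the coactivator Pprc1 (-0.33) and Yy1 (-0.23).

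Across the first 4 of these lists, 7 of 73 tested factors were higher and 22 lower, where 22.0% of all tested genes were higher and 22.9% lower. Without siCtl replicate 1 the counts were 2 and 13, and 18.3% and 18.7% of all genes tested in that fit were called higher and lower. Without siCtl replicate 3 they were 3 and 13, beside 18.7% and 18.5% of all tested genes, and 4 were higher without any 1 of the siUpf1 libraries.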

How the data were processed

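The deposited table held unnormalised counts of reads per gene, which the authors made from stranded poly(A) libraries by mapping to GRCm38.p6 with STAR (2.7.0f in the submitters' processing notes) and counting exon reads with featureCounts (Subread 1.6.4). Replicates were not pooled, and every column of the table belonged to 1 sample. The limit that a count of 0 allows was set at 3 counts and covers counting error only.

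The main test was DESeq2's Wald test (version 1.42.0 in R 4.3.3) with group alone in the design, fitted to every gene in all 5 libraries. Size factors were median-of-ratios, low counts were removed by its independent filtering, and p-values were adjusted by Benjamini-Hochberg. Genes were called at an adjusted p under 0.05. edgeR's quasi-likelihood test (4.0.16) was an alternative, with other size factors, filters, shrinkage, a replicate block, added counts of nuclear copies and each library left out. Shared sequence was measured in windows of 100 bases, the read length, against GENCODE M21 transcripts of the same build. Scripts were tested on simulated data.

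The members, lists and comparisons were chosen with earlier results of these data known. Named were Upf1, all members, and of each list up to 3 called genes with the largest rise and fall and a mean of at least 100 normalised counts. The genes of the lists of tail-less RNAs and nuclear copies could also be named. Some marker genes are not reported here.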

Additional observations from a re-analysis of the deposited data

How the results depend on the processing

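Of the 255 recomputed values of single mitochondrial genes, 238 kept their direction and their side of the threshold, 10 kept the direction without the call, 3 gained a call and 4 changed sign. Of those 4, 2 belonged to called genes, mt-Co1 (-0.0213, adjusted p = 0.772) and mt-Nd4 (-0.0032, adjusted p = 0.968) when DESeq2 libraries were scaled to the summed mitochondrial mRNAs. The other 2 were not called in either fit: mt-Cytb on that scale (-0.08, adjusted p = 0.141) and mt-Tq without siCtl replicate 1 (-0.05). The 238 include the shrunken fold changes, which reuse the adjusted p of the main fit and could not change sides. They also include values of tRNAs, which no setting called and which in some fits had no adjusted p. The count of 238 therefore overstates how stable the calls were. When scaled to the mitochondrial mRNAs, 3 mitochondrial mRNAs were called higher and the median of the 7 was 0.0038. Nuclear respiratory subunits called higher and lower were then 3 and 48, and expression factors 1 and 42, where 12.3% and 33.5% of all tested genes were called. edgeR called 2 rRNAs and 12 expression factors higher, in a fit that called 27.5% of 15368 genes higher. Switching off DESeq2's filter left 4 such factors, where 10.9% of 28121 genes were called higher. With libraries left out in turn, respiratory subunits called higher ranged from 5 (without siCtl replicate 3) to 9, and expression factors from 2 to 4 higher and from 13 to 19 lower. The fits that left out 1 siUpf1 library called between 20.4% and 20.8% of tested genes higher and between 20.2% and 22.1% lower. Where 1 siCtl library was left, it was assumed to vary like the siUpf1 libraries. Total counts without Gm42418 and mitochondrial genes as size factors, a setting chosen after seeing the data, gave mt-Cytb a call (0.12, DESeq2 adjusted p = 0.0105).

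The labels do not say whether the replicate numbers pair the libraries, and number 2 has no siCtl library. Deviations from the group means correlated at r = -0.05 for number 1 and for number 3 over 15391 genes. With 2 siCtl libraries the deviations of 1 mirror those of the other, so these values are not independent and cannot settle whether the libraries are paired. With the replicate block, 1 mitochondrial mRNA (mt-Nd1), 4 respiratory subunits and 1 expression factor were called higher and 16 respiratory subunits and 11 expression factors lower, in a fit that called 15.5% of 12606 genes higher and 15.6% lower. The fold changes of the 5 mRNAs that lost their call were 0.32 for mt-Nd2, 0.14 for mt-Co1, 0.12 for mt-Nd4, 0.12 for mt-Nd5 and 0.32 for mt-Nd6 on the log2 scale. In the block fit, siUpf1 replicate 2 had no siCtl partner and added nothing to the group difference. How far the lost calls came from having fewer usable libraries was not tested.

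The 6 mRNAs inside the copied stretch had at most 1 read in any library and were not tested in the main fit, so no call was possible there. Only the setting that added counts of nuclear copies gave any of them more reads, and it called none of them.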

Other observations

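Along the strand that carries most genes, the counted rRNAs and mRNAs nearer the start of the map had the larger log2 fold changes under median-of-ratios scaling. Scaled to the mitochondrial mRNAs, whose sum is then fixed, the values of mt-Co1, mt-Nd4 and mt-Cytb were below 0. The DESeq2 values in map order were 0.28 for mt-Rnr1, 0.35 for mt-Rnr2, 0.28 for mt-Nd1, 0.33 for mt-Nd2, 0.14 for mt-Co1, 0.16 for mt-Nd4, 0.17 for mt-Nd5 and 0.09 for mt-Cytb, so the first 4 lay between 0.28 and 0.35 and the last 4 between 0.09 and 0.17. Without siUpf1 replicate 3, however, mt-Rnr1 was at 0.10, within the range of the last 4. Pearson's r between start position and log2 fold change was -0.85 and Spearman's rho -0.79 over these 8 genes, which share libraries and precursor transcripts and are not independent. This pattern was noticed in the data and no test was made of it. As log2 ratios to the siCtl mean, the medians of the first and last 4 were 0.28 and 0.13 in siUpf1 replicate 1, 0.31 and 0.18 in replicate 2, and 0.35 and 0.08 in replicate 3. In siUpf1 replicate 1, mt-Rnr1 was an exception at -0.02. The tested tRNAs on this strand were left out of the comparison. Of these, mt-Ti was at 0.28, mt-Tm at 0.30 and mt-Tw at 0.37. mt-Tt, the last gene of the strand, was at 0.24, above the range of the last 4. The SE of these tRNA values ran from 0.24 to 0.59.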
